A study of Mus musculus with 18 samples.

Results

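Urea cycle and amino acid catabolism genes were followed in mouse liver after repeated injection of carbon tetrachloride (CCl4), a hepatotoxic solvent used to produce cirrhosis, and after the same injections combined with oral Pien Tze Huang (PTH), a traditional Chinese medicine. The members are a list of gene symbols: 47 genes out of 54752 in the count table, in 12 roles from the urea cycle enzymes to the breakdown of single amino acids and of pyrimidines. RNA-seq counts were available for 18 livers of male C57BL/6 mice, 6 in each of 3 groups, from animals bought at 6 weeks of age. Every mouse was injected intraperitoneally 2 times weekly with 10 µl of fluid per g, over 12 weeks. The fluid was plain corn oil for Control and corn oil with 10% CCl4 for both Cirrhosis and Cirrhosis-PTH. By mouth, the daily dose was double distilled water for Control and Cirrhosis, and PTH for Cirrhosis-PTH, 0.25 mg per g from a 50 mg/ml solution. No group received corn oil with PTH, so a difference between Cirrhosis-PTH and Control carries both agents. All 47 members passed the filter on low counts and were tested.

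The liver breaks down most amino acids of the diet and of body protein. The nitrogen released enters the urea cycle, a set of reactions split between mitochondria and cytosol that turns toxic ammonia into urea, and the carbon skeletons go to glucose, ketone bodies or oxidation. The enzymes are made mainly by hepatocytes, many of them most strongly in the cells around the portal vein, and impaired ammonia removal is a known feature of cirrhosis.

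Libraries held 62482144 to 112294112 counts, of which 31.4% to 60.8% lay in loci that collect ribosomal RNA reads. Levels are given as CPM, a library's counts scaled to a common total and adjusted by the trimmed mean of M values. Of the counts outside those loci, members took 2.03% to 3.01% in Control livers, 1.46% to 2.97% in Cirrhosis livers and 2.78% to 3.85% in Cirrhosis-PTH livers. One liver stood apart, the library labelled Cirrhosis replicate 3: it had the highest level of its group for 43 of the 47 members. Cirrhosis replicate 5 had the lowest level for 37 members. Control replicates 7 and 8 had the largest shares of ribosomal RNA reads, 50.9% and 60.8%, and the lowest Control level for 26 and 12 members. The counts of members that passed the test were therefore also made without these libraries.

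In CCl4 livers 41 of the 47 members were lower than in Control and none was higher (edgeR quasi-likelihood test, adjusted p under 0.05). Of all 21914 genes tested, 25.0% were lower and 25.5% higher. The median member change was -0.94 on the log2 scale against 0.015 for all genes, and 21 members fell to less than 50% of their Control level. In livers given CCl4 and PTH 44 members were higher than in Cirrhosis and none was lower, with 20.1% of all genes higher and 18.6% lower. Here the median change was 1.05 against -0.0032 for all genes, and 24 members at least doubled. Between Cirrhosis-PTH and Control no member passed the threshold in either direction, where 2.48% of all genes were lower and 6.34% higher. The median member difference there was 0.028, from -0.27 for Kmo to 0.88 for Sds. At an unadjusted p under 0.05 the last comparison held 1 lower member, Got2, and 3 higher, Got1, Sds and Mat1a. Of all genes, 9.27% were lower and 13.7% higher at that level. DESeq2 called 1 member lower, Got2, and 1 higher, Mat1a, beside 841 lower and 1879 higher of all 21914 genes. These comparisons share libraries, so their values are given side by side and not as independent results. All 47 changes were negative in Cirrhosis against Control and positive in Cirrhosis-PTH against Cirrhosis, but scaling to hepatocyte genes turned 7 of the former and 2 of the latter.

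Whole liver was sequenced, so fewer hepatocytes and less RNA per hepatocyte cannot be told apart. A list of 21 tested hepatocyte genes outside the members had a median change of -0.60 in Cirrhosis against Control, with 14 lower, and its summed level ran from 88347 to 99480 CPM in Control and from 58368 to 86144 CPM in Cirrhosis. In the same livers the summed level of 12 stellate cell and myofibroblast markers ran from 139 to 297 CPM in Control, 855 to 1160 CPM in Cirrhosis and 281 to 748 CPM in Cirrhosis-PTH. For 14 macrophage markers the ranges were 193 to 338 CPM, 664 to 951 CPM and 274 to 395 CPM, with 10 of the 14 called higher and 2 lower in Cirrhosis. For 10 cholangiocyte markers the ranges were 30.1 to 55.5 CPM, 95.6 to 212 CPM and 36.8 to 94.0 CPM. Of these markers 7 were called higher and 1 lower in Cirrhosis. Under PTH only 2 were called lower than in Cirrhosis, and 8 did not pass. For 8 neutrophil markers the ranges were 2.17 to 10.1 CPM, 17.7 to 141 CPM and 3.68 to 12.9 CPM. Spp1 was on both the macrophage and the cholangiocyte list, so those sums share a gene. For 10 endothelial markers the ranges were 296 to 328 CPM, 310 to 377 CPM and 307 to 338 CPM. For 10 lymphocyte markers they were 8.78 to 49.8 CPM, 17.8 to 56.4 CPM and 13.2 to 20.6 CPM. No gene of these lists was at 0 throughout a group. The part of these cells in the members' changes was not tested. Kidney and pancreas share several members with liver, and of the 6 kidney tubule markers 5 were at 0 in all Control livers, 4 in all Cirrhosis livers and 1 in all Cirrhosis-PTH livers, with a summed level of at most 4.17 CPM in any liver. The 6 pancreas markers summed to at most 9.83 CPM. When each library was scaled to the hepatocyte genes instead, 27 members remained lower in Cirrhosis than in Control, 2 became higher (Nags and Slc25a15) and the median was -0.40. Under that scaling the 21 hepatocyte genes did not themselves move alike. Of them 6 were lower and 7 higher in Cirrhosis, and 6 were lower and 8 higher under PTH than in Cirrhosis. That scaling moved the median of all genes to 0.57 and their split to 1744 lower and 11598 higher, from 5482 and 5591. Relative to the median of all genes the members lay at -0.95 under the main scaling and at -0.97 under the hepatocyte scaling; a change of scaling shifts all genes nearly alike, so these values are close by construction and say nothing of hepatocyte content. For Cirrhosis-PTH against Cirrhosis the same scaling gave 40 members higher, none lower and a median of 0.68. Of all genes 1691 were then higher and 8492 lower, with a median of -0.39. Relative to all genes the members lay there at 1.07, against 1.06 under the main scaling.

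**Figure D1:**
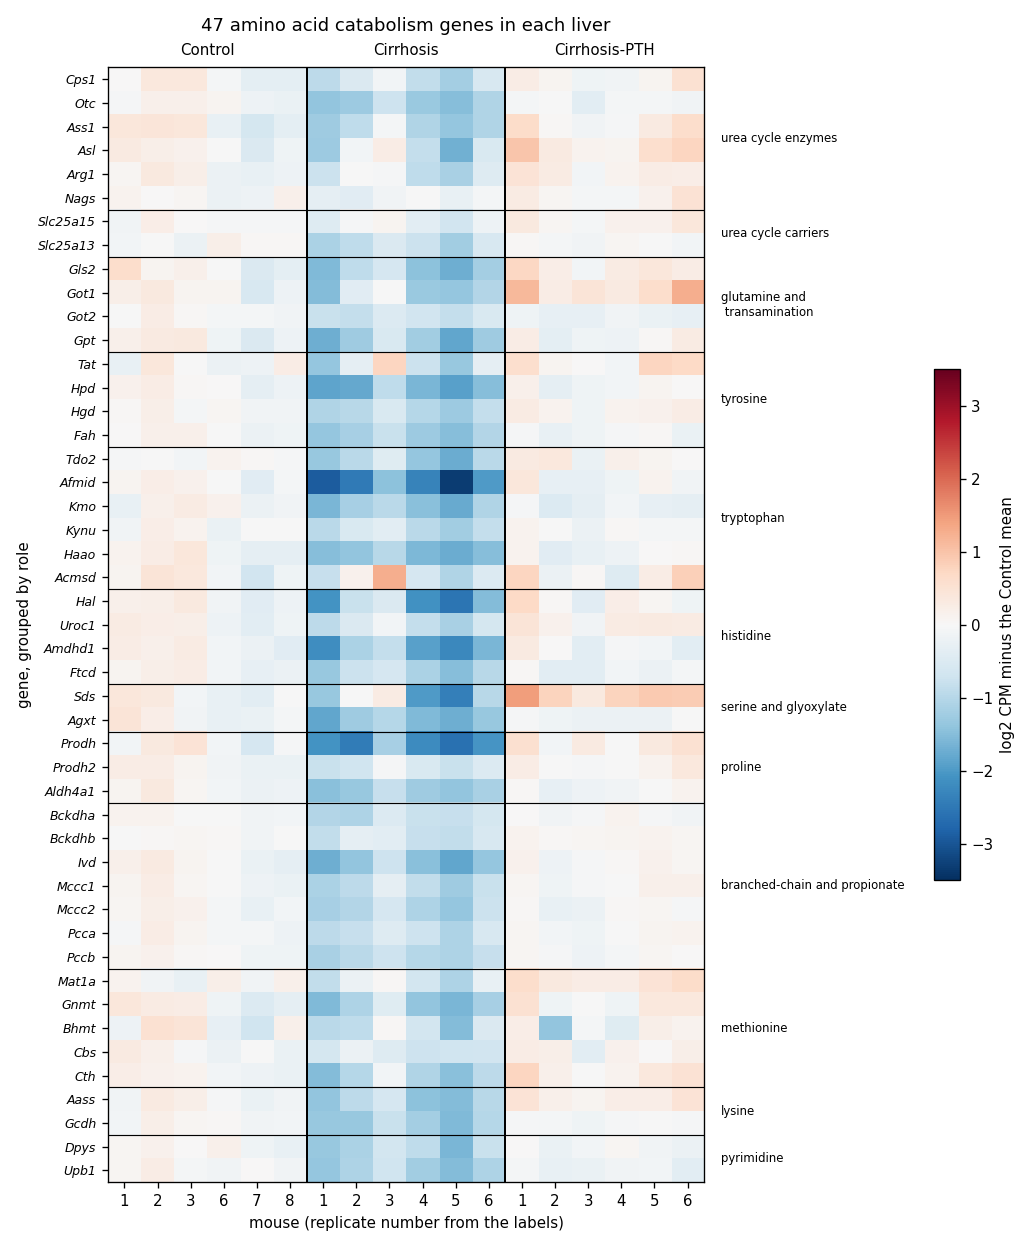
Level of each of the 47 genes in each liver as log2 CPM minus the Control mean of that gene, with genes in rows grouped by role and mice in columns grouped by treatment. Cirrhosis livers are mostly blue (lower), palest in mouse 3, where 40 of 47 genes lay below the Control mean, and the median gene of each Cirrhosis-PTH liver lay between -0.13 and 0.25. With libraries scaled to hepatocyte genes, 7 of the 47 mean changes in Cirrhosis were positive.

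Summarised per liver, the median member ran from -0.22 to 0.23 against the Control mean in Control, from -1.46 to -0.48 in Cirrhosis and from -0.13 to 0.25 in Cirrhosis-PTH, on the log2 scale. Cirrhosis livers did not overlap either of the other groups in this median. The highest Cirrhosis value, -0.48, was that of replicate 3 and the lowest, -1.46, that of replicate 5. The hepatocyte list in those livers had medians of -0.51 and -0.83. The spread between mice of a group also differed: the median coefficient of variation over the members was 24.3% among Cirrhosis mice, 14.9% among Control mice and 12.1% among Cirrhosis-PTH mice, and it was higher in Cirrhosis than in Control for 44 members. Without Cirrhosis replicate 3 the members counted lower in Cirrhosis were 45, and all 47 were higher in Cirrhosis-PTH than in Cirrhosis. Of all 22141 genes tested there, 5470 were lower and 4481 higher in these comparisons. Without Control replicates 7 and 8 the member counts were 40 and 44, beside 4613 and 4226 of 22867 genes. Separate groups, with every Cirrhosis liver below every Control liver, were found for 30 members, against 14.7% of all genes. Every Cirrhosis-PTH liver lay above every Cirrhosis liver for 36 members, against 11.8% of all genes.

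Per kb of exon, Cps1 was the most abundant member in Control at 612 ± 136 CPM per kb (SD, n = 6), followed by Gnmt at 556 ± 136, Mat1a at 554 ± 73.6 and Ass1 at 516 ± 157. Neighbours in that order did not differ beyond their spread. In Cirrhosis, Mat1a came out highest at 402 ± 117 CPM per kb, with Cps1 at 384 ± 106. In Cirrhosis-PTH the same pair led with 749 ± 87.3 and 659 ± 120. Acmsd and Mccc1 were the least abundant in Control, at 2.35 ± 0.623 and 2.96 ± 0.383 CPM per kb.

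Of the urea cycle enzymes 4 of 6 fell in Cirrhosis, with a median of -0.62 beside -0.94 for all members, and all 6 rose under PTH, with a median of 0.92 beside 1.05. Cps1 (chromosome 1, 67123026 to 67231259 on GRCm38) makes carbamoyl phosphate from ammonia in mitochondria and is the entry step of the cycle. Its lowest, median and highest levels were 2620, 3266 and 4299 CPM in Control, 1471, 2044 and 3141 CPM in Cirrhosis and 2998, 3557 and 4798 CPM in Cirrhosis-PTH. Only replicate 3 of the Cirrhosis livers reached into the range of Control and of Cirrhosis-PTH. Cps1 was lower in Cirrhosis by a log2 change of -0.67 ± 0.17 (SE, adjusted p = 0.00268) and higher under PTH by 0.78 ± 0.17 (adjusted p = 0.00105). With hepatocyte scaling its fall was -0.14 (adjusted p = 0.452) and its rise under PTH 0.42 (adjusted p = 0.0314).

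Otc (chromosome X, 10252305 to 10321024) joins carbamoyl phosphate to ornithine and showed the largest change of the 6 in Cirrhosis. Otc ran from 185 through a median of 222 to 245 CPM in Control, from 77.3 through 89.4 to 132 CPM in Cirrhosis and from 169 through 207 to 213 CPM in Cirrhosis-PTH. No Cirrhosis liver overlapped either other group. The change was -1.18 ± 0.11 in Cirrhosis (adjusted p = 2.07e-08) and 1.06 ± 0.11 under PTH (adjusted p = 1.91e-07). With hepatocyte scaling it alone of the 6 enzymes stayed called lower, at -0.64 (adjusted p = 2.37e-05).

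Ass1 (chromosome 2, 31470207 to 31520672) and Asl (chromosome 5, 130011258 to 130029247) make arginine from citrulline by way of argininosuccinate. Ass1 ran from 782 through 1284 to 1603 CPM in Control, from 469 through 577 to 1150 CPM in Cirrhosis and from 1098 through 1358 to 1883 CPM in Cirrhosis-PTH. The 1150 CPM belonged to replicate 3, and the other Cirrhosis livers, at 469 to 648 CPM, lay below all Control livers. Ass1 changed by -0.93 ± 0.23 (adjusted p = 0.00248) and then by 1.15 ± 0.23 (adjusted p = 5.86e-04). Asl ran from 162 through 240 to 287 CPM in Control, from 71.9 through 144 to 274 CPM in Cirrhosis and from 244 through 316 to 449 CPM in Cirrhosis-PTH. Its difference of -0.57 ± 0.27 in Cirrhosis did not pass (adjusted p = 0.0881), but did at -0.80 without replicate 3 (adjusted p = 0.0127). Asl rose by 1.05 ± 0.27 under PTH (adjusted p = 0.0048), where every liver lay above the Control median.

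Arg1 (chromosome 10, 24915221 to 24927484) splits arginine into urea and ornithine. Arg1 ran from 430 through 496 to 647 CPM in Control, from 235 through 341 to 513 CPM in Cirrhosis and from 478 through 613 to 716 CPM in Cirrhosis-PTH, with overlap between all groups. It fell by 0.50 on the log2 scale (SE 0.17, adjusted p = 0.0169) and rose by 0.72 ± 0.17 under PTH (adjusted p = 0.00181). Hepatocyte scaling turned this to a difference of 0.015, which did not pass (adjusted p = 0.928). Nags (chromosome 11, 102145513 to 102149477) makes the activator that Cps1 needs, N-acetylglutamate, and was the least changed of the 6. Nags ran from 29.8 through 35.1 to 39.1 CPM in Control, from 26.2 through 30.3 to 34.2 CPM in Cirrhosis and from 32.9 through 37.0 to 48.5 CPM in Cirrhosis-PTH. The difference of -0.19 ± 0.10 did not pass (adjusted p = 0.106), and the rise under PTH was 0.35 ± 0.10 (adjusted p = 0.00651). Under hepatocyte scaling Nags was higher in Cirrhosis, by 0.37 (adjusted p = 0.0115), and -0.05 under PTH.

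**Figure D2:**
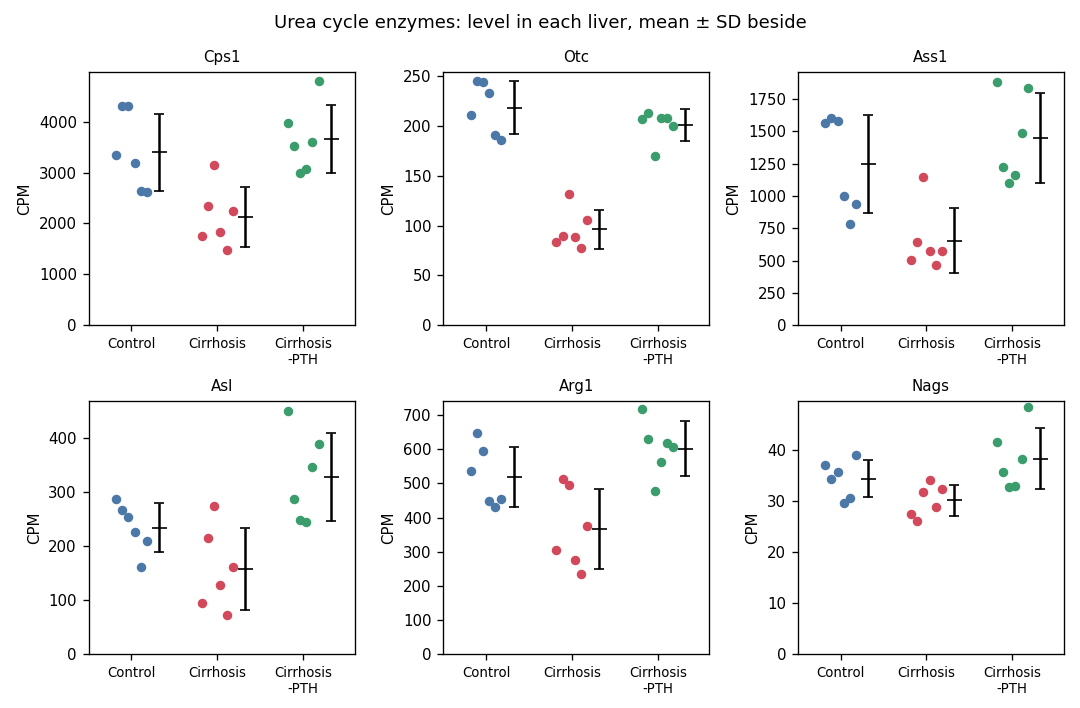
Level of the 6 urea cycle enzymes in CPM, 1 panel per gene, 1 point per liver, with the group mean and SD (n = 6) beside the points. Otc separates Cirrhosis (77.3 to 132 CPM) from both other groups, whereas Cirrhosis livers of Nags overlap Control. With libraries scaled to hepatocyte genes, Arg1 and Nags had positive changes in Cirrhosis.

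Of the mitochondrial carriers 1 of 2 fell in Cirrhosis and both rose under PTH. Slc25a13 (citrin) exports aspartate for Ass1 and ran from 169 through 195 to 224 CPM in Control, from 82.7 through 110 to 135 CPM in Cirrhosis and from 179 through 188 to 204 CPM in Cirrhosis-PTH. It changed by -0.82 ± 0.10 (adjusted p = 1.06e-06) and 0.79 ± 0.10 (adjusted p = 3.00e-06), with no overlap. Slc25a15, which exchanges ornithine and citrulline, ran from 151 through 160 to 192 CPM, from 104 through 136 to 174 CPM and from 158 through 182 to 218 CPM in the same order. Its difference of -0.26 ± 0.11 missed the threshold (adjusted p = 0.0539) and passed it without Cirrhosis replicate 3 (-0.34, adjusted p = 0.0103). It also passed without Cirrhosis replicate 2 (-0.30, adjusted p = 0.0324), Control replicate 1 (-0.28, adjusted p = 0.0494) or Cirrhosis-PTH replicate 6 (-0.26, adjusted p = 0.0499). The rise under PTH was 0.44 ± 0.11 (adjusted p = 0.00289). Hepatocyte scaling gave 0.28 for Slc25a15 in Cirrhosis (adjusted p = 0.0162), the opposite sign.

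For a view of the sequence just before the start of transcription, 4 windows of 250 bases are shown that hold no annotated exon. They belong to Otc, the urea cycle enzyme with the largest change, to Hal and Amdhd1, 2 histidine enzymes that lie side by side, and to Agxt, a peroxisomal enzyme whose Cirrhosis livers all lay below Control. Capitals mark matches to the motifs described after them.
Otc, chrX:10252055-10252304, plus strand: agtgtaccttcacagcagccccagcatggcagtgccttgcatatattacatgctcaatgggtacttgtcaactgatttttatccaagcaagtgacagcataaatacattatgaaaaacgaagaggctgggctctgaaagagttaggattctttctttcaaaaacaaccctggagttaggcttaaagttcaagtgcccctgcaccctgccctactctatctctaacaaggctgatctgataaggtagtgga
Hal, chr10:93488518-93488767, plus strand: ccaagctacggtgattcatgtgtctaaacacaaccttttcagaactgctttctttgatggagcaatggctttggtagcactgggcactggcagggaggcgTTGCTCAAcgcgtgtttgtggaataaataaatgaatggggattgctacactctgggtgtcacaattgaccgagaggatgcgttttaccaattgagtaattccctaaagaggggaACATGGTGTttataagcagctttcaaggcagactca
Amdhd1, chr10:93540034-93540283, minus strand: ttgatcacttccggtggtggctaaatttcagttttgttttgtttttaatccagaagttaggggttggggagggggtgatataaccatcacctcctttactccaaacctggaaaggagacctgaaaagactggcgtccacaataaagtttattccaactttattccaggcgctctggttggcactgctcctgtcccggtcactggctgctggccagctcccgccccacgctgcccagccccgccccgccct
Agxt, chr1:93134990-93135239, plus strand: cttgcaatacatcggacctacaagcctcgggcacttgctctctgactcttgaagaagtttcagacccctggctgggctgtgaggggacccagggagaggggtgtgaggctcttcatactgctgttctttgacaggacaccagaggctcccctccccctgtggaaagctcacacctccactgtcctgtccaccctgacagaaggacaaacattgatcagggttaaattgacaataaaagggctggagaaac
These are RefSeq sequences on GRCm38.p6, in the direction of the gene. Hal holds a match to TTGCNNAA, the C/EBP motif, and to ACANNNTGT, the core of the glucocorticoid receptor motif.

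Promoter sequences of 300 bases (250 before to 50 after the start) were found for 37 of the 47 members. On both strands, TTGCNNAA was present in 13.5% of the member promoters and 10.8% of all 32851 promoters, and ACANNNTGT in 13.5% and 6.85%. GTTAAT (HNF1) was present in 10.8% of the member promoters and 7.10% of all. Neither CAAAGTCCA (HNF4A) nor TGACGTCA (CREB) had a match in a member promoter, against 0.475% and 1.79% of all promoters. These motifs do not contain one another, and a match is a description of letters. Median GC content was 56.0% in the member promoters and 52.7% in all.

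Glutamine release and transamination feed nitrogen to the cycle, and all 4 of these members fell in Cirrhosis and rose under PTH. Gls2, the liver glutaminase, ran from 137 through 202 to 299 CPM in Control, from 60.2 through 79.1 to 129 CPM in Cirrhosis and from 184 through 237 to 321 CPM in Cirrhosis-PTH. Cirrhosis livers lay below both other groups, with changes of -1.22 ± 0.20 (adjusted p = 5.10e-05) and 1.49 ± 0.20 (adjusted p = 9.35e-06). Got1, the cytosolic aspartate aminotransferase, ran from 83.5 through 130 to 155 CPM, from 42.9 through 54.6 to 120 CPM and from 146 through 177 to 292 CPM in the same order. It fell by 0.86 on the log2 scale (SE 0.26, adjusted p = 0.0104) and rose by 1.56 ± 0.26 (adjusted p = 1.33e-04), above every Cirrhosis liver. Its level under PTH was 202 CPM on average against 125 CPM in Control, a difference of 0.70 ± 0.26 that did not pass (adjusted p = 0.108). With hepatocyte scaling that difference was 0.87 and passed (adjusted p = 0.0213). Got2, the mitochondrial form, changed by -0.68 and 0.45, and its Cirrhosis-PTH livers (242 to 272 CPM) all lay below Control (272 to 355 CPM), the nearest livers being at 272.2 and 272.4 CPM, with -0.23 ± 0.08 (adjusted p = 0.0712). It was the only member separated downward in that comparison, where 1.40% of all genes were. Gpt, alanine aminotransferase, changed by -1.27 and 1.25. With hepatocyte scaling Gls2 and Gpt stayed lower in Cirrhosis, while Got1 (-0.35, adjusted p = 0.204) and Got2 (-0.13, adjusted p = 0.252) did not pass, and the rise of Got2 under PTH was 0.059 (adjusted p = 0.636).

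Tyrosine breakdown runs from Tat through Hpd and Hgd to Fah, and 3 of these 4 members fell in Cirrhosis and rose under PTH. Hpd, which makes homogentisate, ran from 785 through 985 to 1169 CPM in Control, from 258 through 300.2 to 520 CPM in Cirrhosis and from 777 through 938 to 1103 CPM in Cirrhosis-PTH. The groups were separate, with -1.56 ± 0.15 (adjusted p = 2.75e-08) and 1.51 ± 0.15 (adjusted p = 1.04e-07). Fah, the last step, ran from 254 through 291 to 331 CPM, from 104 through 125 to 169 CPM and from 245 through 274 to 299 CPM. Its changes were -1.17 ± 0.10 (adjusted p = 9.71e-09) and 1.06 ± 0.10 (adjusted p = 9.28e-08). Hgd changed by -0.94 and 1.06. Tat, tyrosine aminotransferase and the entry step, did not pass either test, at -0.38 ± 0.30 (adjusted p = 0.309) and 0.74 ± 0.30 (adjusted p = 0.06). Cirrhosis replicate 3 had 605 CPM of Tat, above all livers of every group, and the other Cirrhosis livers 140 to 289 CPM. Without that liver Tat was lower in Cirrhosis (-0.76, adjusted p = 0.00746) and higher under PTH (1.12, adjusted p = 5.05e-04).

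Tryptophan catabolism, which leads through kynurenine to NAD precursors, held the member with the largest fall. Afmid, the formamidase after Tdo2, ran from 49.2 through 66.5 to 76.0 CPM in Control, from 6.44 through 12.2 to 23.9 CPM in Cirrhosis and from 52.6 through 58.7 to 84.4 CPM in Cirrhosis-PTH. Cirrhosis livers lay far below both other groups, with -2.29 ± 0.25 (adjusted p = 7.35e-07) and 2.24 ± 0.25 (adjusted p = 1.71e-06). Gm20708, a gene model on the same strand, shares 44.3% of the exon bases of Afmid and moved by -2.24 and 2.18, so how counts were divided between them is uncertain. Tk1, on the other strand, shares 83 of those bases and moved by -1.48 and 1.67. Haao, which makes quinolinate, ran from 134 through 167 to 220 CPM, from 49.9 through 59.5 to 84.8 CPM and from 127 through 158 to 180 CPM. Its changes were -1.45 ± 0.14 (adjusted p = 2.74e-08) and 1.32 ± 0.14 (adjusted p = 2.01e-07). Tdo2, the entry step, changed by -1.07 and 1.198, Kmo by -1.32 and 1.05 and Kynu by -0.79 and 0.75. Acmsd, which diverts the pathway away from NAD, passed neither test and was the least abundant member per kb in Control. It ran from 4.02 through 6.46 to 8.88 CPM in Control, from 3.10 through 4.47 to 15.5 CPM in Cirrhosis and from 4.71 through 7.17 to 11.4 CPM in Cirrhosis-PTH. Replicate 3 held the 15.5 CPM. The differences were -0.06 ± 0.35 (adjusted p = 0.90) and 0.29 ± 0.35 (adjusted p = 0.562). Without replicate 3 Acmsd was called higher under PTH (0.78, adjusted p = 0.0212) but not lower in Cirrhosis (-0.55).

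Histidine is broken down by Hal, Uroc1, Amdhd1 and Ftcd in that order, and all 4 fell and rose. Hal and Amdhd1 lie next to each other on chromosome 10, at 93488768 to 93519304 and 93523338 to 93540033, on opposite strands with 4033 bases and no other annotated gene wholly between them. Amdhd1 ran from 81.7 through 110 to 130 CPM in Control, from 22.6 through 31.9 to 60.1 CPM in Cirrhosis and from 83.0 through 102 to 133 CPM in Cirrhosis-PTH. Its changes were -1.57 ± 0.22 (adjusted p = 1.12e-05) and 1.48 ± 0.22 (adjusted p = 3.32e-05). Hal ran from 269 through 365 to 454 CPM, from 60.2 through 104 to 251 CPM and from 271 through 369 to 574 CPM. Its changes were -1.43 ± 0.31 (adjusted p = 9.20e-04) and 1.52 ± 0.31 (adjusted p = 7.66e-04). Cirrhosis livers were below both other groups for either gene. Ftcd changed by -1.02 and 0.83. Uroc1 changed least in Cirrhosis, by -0.66, and rose by 0.87 under PTH, and its groups overlapped. With hepatocyte scaling its difference in Cirrhosis was -0.13 and did not pass (adjusted p = 0.389), and the other 3 stayed lower.

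Serine and glyoxylate are handled by Sds and Agxt, and both rose under PTH. Sds, serine dehydratase, ran from 40.1 through 50.0 to 68.7 CPM in Control, from 9.81 through 23.4 to 62.8 CPM in Cirrhosis and from 66.1 through 92.7 to 144 CPM in Cirrhosis-PTH. Cirrhosis replicates 2 and 3, at 51.2 and 62.8 CPM, lay within the Control range, and the difference of -0.79 ± 0.38 did not pass (adjusted p = 0.094). It passed without replicate 3 (-1.13, adjusted p = 0.0141) and without replicate 2 (-0.997, adjusted p = 0.0446). Every Cirrhosis-PTH liver lay above every Cirrhosis liver, with 1.67 ± 0.38 (adjusted p = 0.00237). Against Control the difference was 0.88 ± 0.38 (adjusted p = 0.173), and a fit of only these groups gave an adjusted p of 0.0121. Sds shares 21.3% of its exon bases with Plbd2 on the other strand, which moved by -0.39 and 0.38, and the use of strand in counting is not given. Agxt, which turns glyoxylate into glycine, ran from 105 through 117 to 172 CPM, from 35.3 through 46.1 to 62.5 CPM and from 108 through 111.5 to 124 CPM. It changed by -1.44 ± 0.13 (adjusted p = 1.89e-08) and 1.28 ± 0.13 (adjusted p = 1.88e-07).

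Proline oxidation held the largest rise under PTH. Prodh, the mitochondrial proline dehydrogenase, ran from 61.9 through 89.3 to 131 CPM in Control, from 15.3 through 21.2 to 42.0 CPM in Cirrhosis and from 87.5 through 118 to 138 CPM in Cirrhosis-PTH. No Cirrhosis liver overlapped another group, with -2.06 ± 0.23 (adjusted p = 8.76e-07) and 2.31 ± 0.23 (adjusted p = 4.93e-07). Aldh4a1, the next enzyme, ran from 236 through 272 to 345 CPM, from 100.3 through 113 to 158 CPM and from 222 through 263 to 299 CPM. Its changes were -1.22 ± 0.11 (adjusted p = 1.68e-08) and 1.14 ± 0.11 (adjusted p = 9.74e-08). Prodh2, which acts on hydroxyproline, changed by only -0.54 and 0.65, and with hepatocyte scaling by 0.0064 and 0.27, neither of which passed.

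Among the 7 enzymes of branched-chain amino acid and propionate oxidation all fell and all rose, from -0.61 for Bckdhb to -1.38 for Ivd and from 0.70 for Bckdhb to 1.39 for Ivd. Ivd, isovaleryl-CoA dehydrogenase of leucine breakdown, ran from 98.2 through 127 to 152 CPM in Control, from 34.9 through 46.2 to 74.3 CPM in Cirrhosis and from 109 through 128 to 136 CPM in Cirrhosis-PTH. The tests gave -1.38 ± 0.15 (adjusted p = 1.70e-07) and 1.39 ± 0.15 (adjusted p = 3.14e-07). Mccc2, a subunit of the next leucine enzyme, ran from 30.9 through 37.3 to 43.2 CPM, from 14.5 through 18.0 to 24.7 CPM and from 30.9 through 37.3 to 39.0 CPM, with -0.98 ± 0.11 (adjusted p = 2.41e-07) and 0.92 ± 0.11 (adjusted p = 1.14e-06). Its partner Mccc1 changed by -0.85 and 0.88. The propionyl-CoA carboxylase subunits Pcca and Pccb changed by -0.75 and -0.95 and by 0.76 and 0.93. Bckdha, of the branched-chain dehydrogenase, changed by -0.79 and 0.75, and 61.7% of its exon bases are shared with B3gnt8 on the other strand. All 7 were separate between Cirrhosis and each other group. With hepatocyte scaling 4 stayed lower in Cirrhosis, with a median of -0.30, and Bckdha (-0.23), Bckdhb (-0.08) and Pcca (-0.20) did not pass; all 7 stayed higher under PTH.

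Methionine and homocysteine enzymes all fell in Cirrhosis, with a median of -0.73. With hepatocyte scaling only Gnmt stayed lower, the median was -0.18, and Mat1a (0.055), Cbs (-0.018), Bhmt (-0.18) and Cth (-0.40) did not pass. Gnmt, which uses S-adenosylmethionine to methylate glycine, ran from 469 through 684 to 866 CPM in Control, from 216 through 272 to 487 CPM in Cirrhosis and from 586 through 743 to 944 CPM in Cirrhosis-PTH. It changed by -1.18 ± 0.20 (adjusted p = 6.33e-05) and 1.32 ± 0.20 (adjusted p = 2.77e-05). Cth, which makes cysteine from cystathionine, ran from 139 through 164 to 189 CPM, from 56.3 through 79.7 to 152 CPM and from 162 through 195 to 273 CPM. Its changes were -0.94 ± 0.20 (adjusted p = 6.06e-04) and 1.27 ± 0.20 (adjusted p = 4.55e-05). Cbs, the enzyme before it, changed by -0.56 and 0.64. Mat1a, which makes S-adenosylmethionine in adult liver, fell by 0.46 on the log2 scale (adjusted p = 0.016) and rose by 0.90. All Cirrhosis-PTH livers, at 2301 to 2959 CPM, lay above all Control livers, at 1604 to 2209 CPM, with 0.44 ± 0.15 (adjusted p = 0.0839). With hepatocyte scaling that difference was 0.60 and passed (adjusted p = 0.00518). Mat1a was the only member separated upward in that comparison under the main scaling, where 3.07% of all genes were. Its fall in Cirrhosis did not pass without Control replicates 7 and 8 (-0.40, adjusted p = 0.071). Bhmt, the betaine methyltransferase, fell by 0.73 on the log2 scale (SE 0.28, adjusted p = 0.0405), a call lost when any of 9 single livers was left out. Its rise under PTH, 0.54 ± 0.28, did not pass (adjusted p = 0.15), and Cirrhosis-PTH replicate 2, at 538 CPM, lay below all others of its group (1049 to 1675 CPM). Without that liver the change was 0.70 (adjusted p = 0.0324), and without Cirrhosis replicate 3 it was 0.74 (adjusted p = 0.046).

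Both lysine and both pyrimidine members fell in Cirrhosis and rose under PTH, also with hepatocyte scaling. Aass, the entry step for lysine, ran from 206 through 227 to 296 CPM in Control, from 83.7 through 107 to 160 CPM in Cirrhosis and from 255 through 281 to 332 CPM in Cirrhosis-PTH, with -1.11 ± 0.14 (adjusted p = 1.19e-06) and 1.38 ± 0.14 (adjusted p = 1.59e-07). Gcdh, glutaryl-CoA dehydrogenase, ran from 228 through 244 to 287 CPM, from 84.5 through 104 to 144 CPM and from 222 through 242 to 244 CPM, with -1.18 ± 0.10 (adjusted p = 5.00e-09) and 1.12 ± 0.10 (adjusted p = 2.75e-08). Cirrhosis livers were below both other groups for either gene. Dpys, dihydropyrimidinase, ran from 122 through 148 to 165 CPM, from 47.9 through 72.2 to 93.0 CPM and from 122 through 135 to 152 CPM, with -1.03 ± 0.13 (adjusted p = 6.73e-07) and 0.94 ± 0.13 (adjusted p = 4.09e-06). Upb1, the last step to beta-alanine, ran from 137 through 148 to 179 CPM, from 52.8 through 68.0 to 92.3 CPM and from 117 through 133 to 143 CPM, with -1.14 ± 0.11 (adjusted p = 1.66e-08) and 0.95 ± 0.11 (adjusted p = 3.97e-07).

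**Figure D3:**
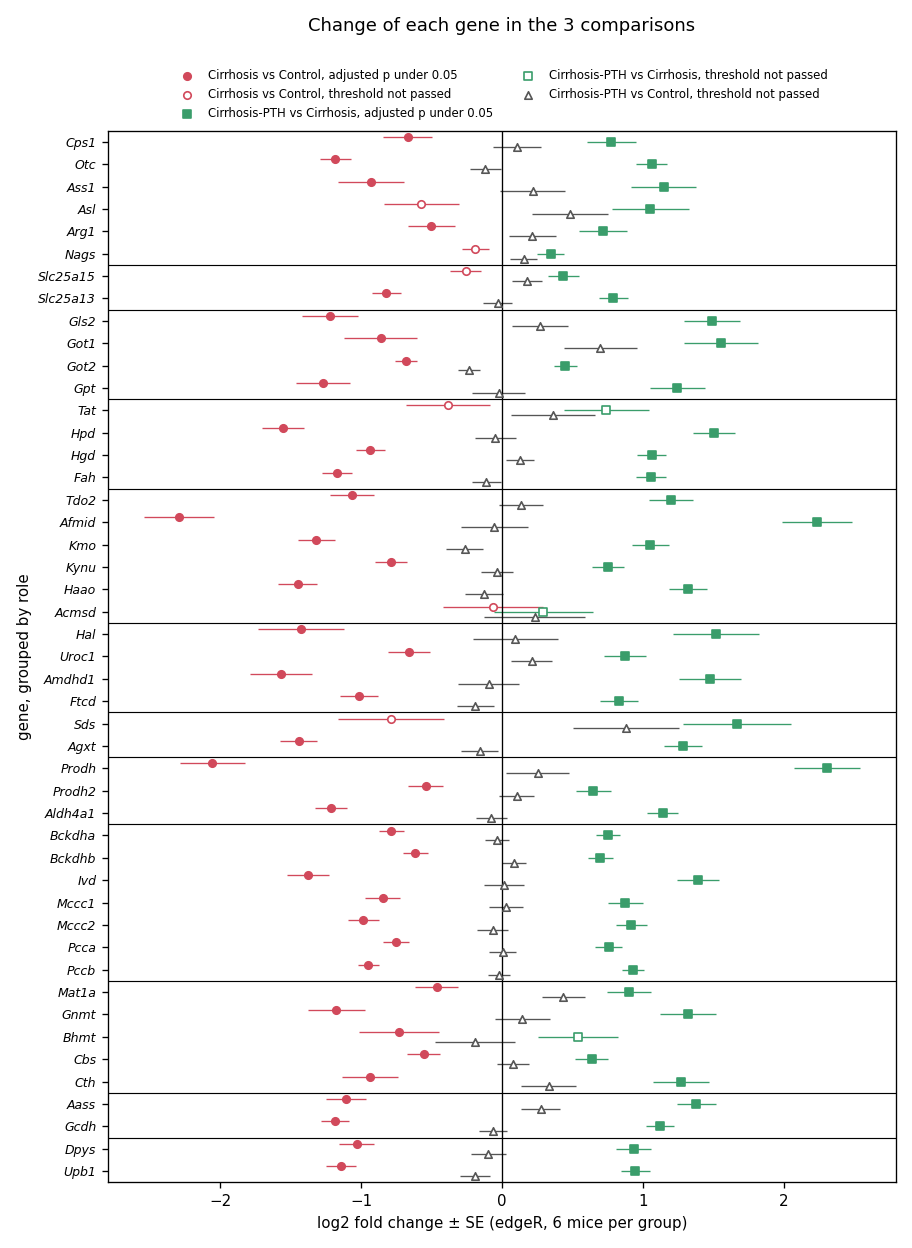
Log2 fold change with SE of each of the 47 genes, grouped by role, for Cirrhosis against Control (circles), Cirrhosis-PTH against Cirrhosis (squares) and Cirrhosis-PTH against Control (triangles); filled symbols passed an adjusted p of 0.05. Afmid and Prodh lie farthest from 0 in the first pair of comparisons, and no triangle is filled. With hepatocyte scaling, 7 circles and 2 squares changed sign.

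**Figure D4:**
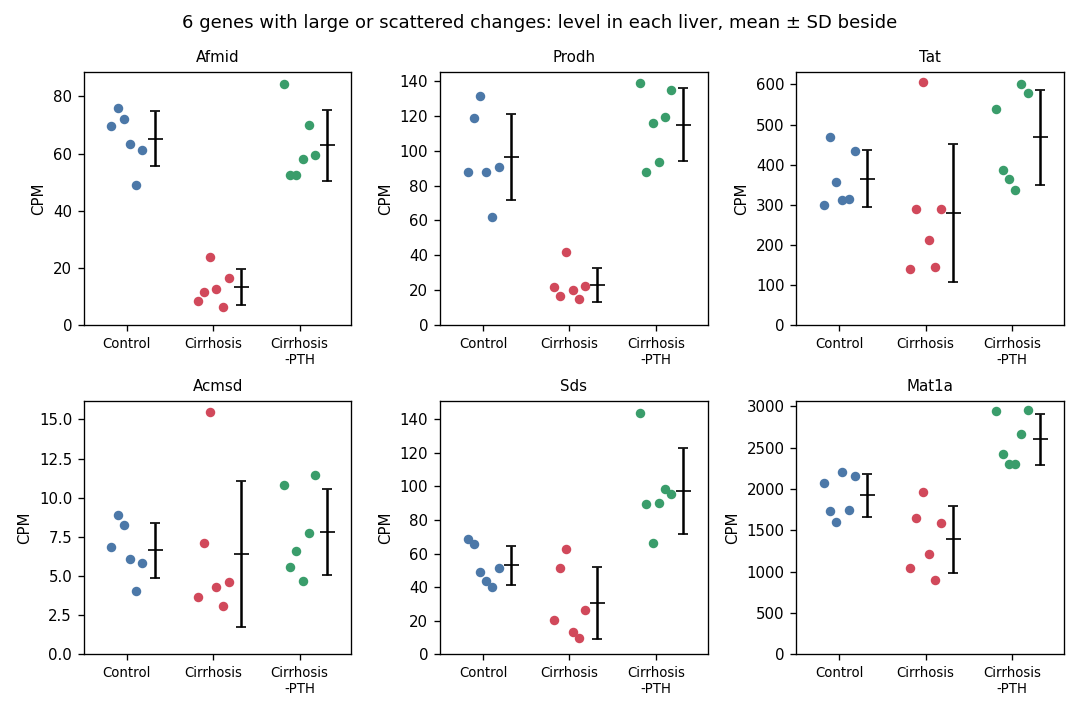
Level in CPM of Afmid, Prodh, Tat, Acmsd, Sds and Mat1a, 1 point per liver, with the group mean and SD (n = 6) beside the points. A single Cirrhosis liver, replicate 3, is at the top of its group in all 6 panels and stands above all other livers for Tat (605 CPM) and Acmsd (15.5 CPM). With hepatocyte scaling the mean changes of Tat, Acmsd and Mat1a in Cirrhosis were positive.

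Isoenzyme pairs compare, within a liver, a member with another form of the same enzyme, so that library scaling drops out. The log2 ratio of Arg1 to Arg2 counts ran from 10.2 to 12.3 in Control, from 8.67 to 10.1 in Cirrhosis and from 10.8 to 13.1 in Cirrhosis-PTH. The mean difference between Cirrhosis and Control was -2.43 (two-sided exact permutation test, adjusted p = 0.00433 over 12 tests, the smallest that 6 against 6 livers can give being 0.00216 before adjustment). Under PTH the ratio was higher than in Cirrhosis by 2.47 (exact adjusted p = 0.00433) and differed from Control by 0.044 (exact adjusted p = 0.942). Arg2 itself was rare, with medians of 0.127, 0.598 and 0.211 CPM.

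Gpt to Gpt2 was lower in Cirrhosis by -1.46 and higher under PTH by 1.02 (both exact adjusted p = 0.00433). It remained below Control under PTH, -1.52 against -1.07 on average (exact adjusted p = 0.0144), and Gpt2 had medians of 281, 317 and 377 CPM. Mat1a to Mat2a differed by -0.40 in Cirrhosis, which did not pass (exact adjusted p = 0.182), but did without replicate 3 (-0.54, exact adjusted p = 0.0442). Under PTH that ratio was above Cirrhosis by 0.85 and above Control by 0.46 (both exact adjusted p = 0.00974). Mat2a had medians of 52.1, 49.0 and 50.9 CPM.

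**Figure D5:**
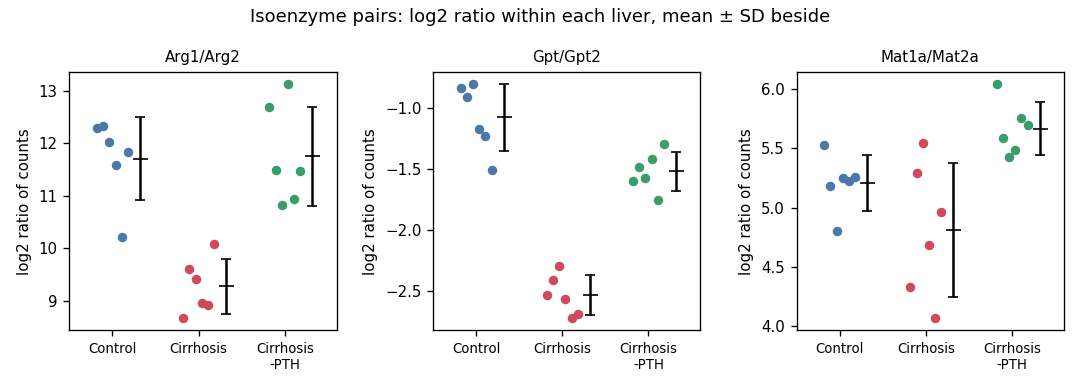
Log2 ratio of the counts of 2 isoenzymes within each liver for 3 pairs, 1 point per liver, with the group mean and SD (n = 6) beside the points. For Arg1/Arg2 and Gpt/Gpt2 no Cirrhosis liver reaches the Control range, whereas Mat1a/Mat2a overlaps between Cirrhosis and Control. Gpt/Gpt2 lies lower in Cirrhosis-PTH (mean -1.52) than in Control (-1.07).

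Further genes of these pathways, none of them members, were grouped in lists. Aromatic amino acid genes had 10 of 10 tested lower in Cirrhosis and 9 higher under PTH, with medians of -1.13 and 1.07. Gch1, which starts synthesis of the cofactor of phenylalanine hydroxylase, changed by -1.35 and 1.08, and Gstz1, between Hgd and Fah in tyrosine breakdown, by -1.26 and 1.09. Of 18 tested branched-chain and propionate genes 17 were lower and 17 higher, with Acadsb at -1.06 and 0.98 and Hibadh at -1.09 and 0.94. The gene that passed neither test, named after its values were seen, was Bckdk, the kinase that shuts off the branched-chain dehydrogenase, at 0.041 and -0.046. Of 19 sulfur and glycine pathway genes 16 were lower and 16 higher, with the sulfite oxidase Suox at -1.47 and 1.52 and Dmgdh at -1.26 and 0.99. Of 17 other breakdown genes 15 were lower and 15 higher, with Phyh, of phytanic acid oxidation, at -1.40 and 1.10 and the asparaginase Aspg at -1.80 and 1.69. With hepatocyte scaling the medians of these 4 lists were -0.58, -0.44, -0.54 and -0.40 in Cirrhosis and 0.69, 0.55, 0.47 and 0.45 under PTH, and Bckdk was higher in Cirrhosis (0.60).

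Other urea cycle and ammonia genes split. Of 12, 6 were lower and 3 higher in Cirrhosis, and 5 were higher and 4 lower under PTH. The list median of -0.55 in Cirrhosis became -0.00095 with hepatocyte scaling, and that of 0.33 under PTH became -0.057. Oat, the ornithine aminotransferase of hepatocytes around the central vein, fell from a median of 491 CPM to 22.2 CPM and was at 157 CPM under PTH, with changes of -4.51 and 2.92. It remained below Control under PTH by -1.58 ± 0.17 (adjusted p = 1.14e-05). Glul, glutamine synthetase of the same cells, had medians of 709, 59.8 and 461 CPM, with -3.51 and 2.88, and was also below Control under PTH (-0.63, adjusted p = 8.63e-04). Among the higher genes were Arg2 (1.87) and Aldh18a1 (2.78), which starts proline synthesis, named after their values were seen. Under PTH both, and the glutamate dehydrogenase Glud1, were lower than in Cirrhosis, with changes of -1.59, -2.36 and -0.30.

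Amino acid transporters also split, with 7 of 16 lower and 5 higher in Cirrhosis and 8 higher and 5 lower under PTH. Hepatocyte scaling turned their median in Cirrhosis from -0.29 to 0.24 and under PTH from 0.26 to -0.12. Slc1a2, a glutamate transporter, had medians of 257, 0.419 and 163 CPM and changed by -9.08 ± 0.27 (adjusted p = 5.12e-14) and 8.47 ± 0.26 (adjusted p = 2.41e-13). Slc1a4, which carries alanine, serine and cysteine, had medians of 2.05, 14.8 and 3.14 CPM and changed by 2.78 ± 0.18 (adjusted p = 2.00e-10) and -2.19 ± 0.18 (adjusted p = 9.41e-09). The other genes that were higher in Cirrhosis, named after their values were seen, were Slc1a5 (1.95), Slc3a2 (1.63), Slc7a5 (1.59) and Slc7a11 (8.80, a cystine carrier at no more than 0.22 CPM in Control), and all 5 were lower under PTH than in Cirrhosis.

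Regulators of the pathway had 16 of 19 lower and 1 higher in Cirrhosis, and 15 higher and 1 lower under PTH. With hepatocyte scaling 10 were lower and 2 higher, then 7 higher and 2 lower. Ppara, a nuclear receptor of the fasting response, had medians of 189, 84.2 and 159 CPM and changed by -1.22 ± 0.08 (adjusted p = 1.61e-10) and 0.98 ± 0.08 (adjusted p = 9.11e-09). Gcgr, the glucagon receptor, through which amino acid breakdown is induced, had medians of 126, 59.5 and 103 CPM and changed by -1.07 ± 0.08 (adjusted p = 4.67e-10) and 0.81 ± 0.08 (adjusted p = 4.43e-08). The gene higher in Cirrhosis, and lower under PTH, was Foxa3 (0.49 and -0.28). Against Control, 4 regulators were lower under PTH, among them, named after their values were seen, Foxa1 (-0.999), Creb3l3 (-0.30) and Gcgr (-0.26). With hepatocyte scaling 1 was lower and 2 were higher, and neither Creb3l3 (-0.14, adjusted p = 0.336) nor Gcgr (-0.095, adjusted p = 0.543) passed.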

How the data were processed

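Total RNA of 18 livers was sequenced after ribosomal RNA removal, per the labels' protocols. The authors deposited 1 table of whole-number counts per gene. The submitters' processing notes name HISAT2 2.2.1, StringTie 2.1.5, cutadapt 4.2, Bowtie 1.3.1 and GRCm38; the counting tool, its use of strand and the annotation are not given in the sources used here. Counts were fitted in 1 model of all 3 groups with edgeR 4.0.16 (R 4.3.3; TMM scaling, filterByExpr, robust quasi-likelihood F-test), with Benjamini-Hochberg adjustment over 21914 genes and a threshold of 0.05. Isoenzyme ratios used a pseudocount of 0.5 counts and two-sided exact permutation tests over 924 arrangements, adjusted over 12 tests that include a pair not reported here. DESeq2 1.42.0, other scalings, filters and sample sets were alternatives. Members and lists were chosen with earlier results of these data known. Full values are given for the urea cycle enzymes and the 2 members with the largest change in each other role. The 2 genes with the smallest p in each amino acid or regulator list are named, many by log2 change only. The labels do not pair mice across groups, and same-numbered mice did not deviate together (14 pairs, r from -0.064 to 0.051). P-values measure the spread between these samples.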

Additional observations from a re-analysis of the deposited data

Results flagged for a closer look

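Of 153 groups of 6 livers checked, 5 held 1 liver whose distance from the nearest other was large for the group's range; chance gives about 1 in 20. Ass1 was 1150 CPM in Cirrhosis replicate 3, and 469 to 648 CPM in the other Cirrhosis livers. Prodh was 42.0 CPM in the same liver and 15.3 to 22.3 CPM in the others. Otc was 169 CPM in Cirrhosis-PTH replicate 3, below 199 to 213 CPM in the others. Gcdh was 222 CPM in that liver, below 238 to 244 CPM. The log2 ratio of Arg1 to Arg2 was 10.2 in Control replicate 7, below 11.6 to 12.3 in the other Control livers.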

How the results depend on the processing

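Counts of members lower in Cirrhosis than in Control ran from 40 to 45 when single livers were left out, and counts higher under PTH than in Cirrhosis from 44 to 47. Among all genes the same fits gave 4862 to 5489 lower and 3840 to 4481 higher. Hepatocyte scaling gave 27 lower and 2 higher members in Cirrhosis. In that comparison it turned Arg1 (0.015), Nags (0.37), Slc25a15 (0.28), Prodh2 (0.0064) and Mat1a (0.055), and under PTH it turned Nags (-0.048). Also turned were Tat (0.13), Acmsd (0.44) and, under PTH, Acmsd (-0.036), which passed under neither scaling. Between Cirrhosis-PTH and Control it called 5 members higher, Slc25a15, Got1, Bckdhb, Mat1a and Aass, and none lower. Of all 21914 genes it called 2381 higher and 186 lower there. The cause was not tested. In that last comparison DESeq2 gave 1 lower and 1 higher member, beside 841 lower and 1879 higher of all 21914 genes. A fit of only the groups compared gave 2 higher members (Sds and Mat1a), beside 1025 of 19994 genes. Leaving out single livers gave 0 to 1 higher member (Mat1a, without Cirrhosis replicate 5, beside 1393 of 22165 genes). The Mat1a/Mat2a difference between Cirrhosis and Control ran from -0.54 to -0.25 when single livers were left out. The replicate block, for numbers that do not pair the mice, gave 39 lower and 44 higher members and none in the last comparison, losing Mat1a (-0.37) and Bhmt (-0.84) in the first. Of all 21914 genes that fit called 4590 lower in Cirrhosis and 4242 higher under PTH than in Cirrhosis. In the last comparison it called 245 lower and 1109 higher. DESeq2's size factors within edgeR and removal of ribosomal RNA loci changed no member call. At these depths no member was limited by counts of 0.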

Other observations

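Hepatocyte markers of the lobule's zones, none of them members, had different medians. Of 18 genes typical of cells around the central vein 16 were lower in Cirrhosis, with a median of -1.52, and 17 were higher under PTH than in Cirrhosis, with a median of 1.29. Their summed level ran from 5996 to 9607 CPM in Control livers, 986 to 1646 CPM in Cirrhosis livers and 5480 to 6841 CPM in Cirrhosis-PTH livers. Of 16 genes typical of cells around the portal vein 8 were lower and 3 higher in Cirrhosis, with a median of -0.49, and 6 were higher and 3 lower under PTH, with a median of 0.28. With hepatocyte scaling the portal list had 3 lower and 6 higher in Cirrhosis, with a median of 0.037, and 5 higher and 5 lower under PTH, with a median of -0.076, so both directions turned. The central list then had medians of -0.95 and 0.93. The difference between these lists was not tested. Slc1a2 and Oat of the central list are also among the transporters and the ammonia genes. Sox9 of the portal list is also on the cholangiocyte list.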
